A study of Homo sapiens with 6 samples.

Results

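A set of 10 genes was followed that act at replication origins before and while the replicative helicase is switched on. They are *ORC1*, *ORC2*, *ORC3*, *ORC6*, *CDC6*, *CDT1*, *GMNN*, *MCM10*, *CDC7* and *DBF4*, chosen by gene symbol for their role at origins. Earlier results of these data were known when they were chosen. All 10 were found among the 20348 genes of the table. RNA-seq was performed on MV4-11, an established human acute myeloid leukemia (AML) cell line that carries a KMT2A fusion and an internal tandem duplication in FLT3. There were 3 blank control samples (Ctrl) and 3 samples treated with 1 μM WNK463, a compound that blocks the kinases of the WNK family. Both groups were cultured for 48 h. Whether the controls received the solvent of the compound is not given in the sources used here. The comparison asks which transcripts differ between treated and control cells, and it covers a single cell line, dose and time point. The labels do not say whether the 3 samples of a group came from separate cultures, so the p-values below set differences against the spread between these samples only. The coefficient of variation between samples of a group, beyond counting noise, was 5.2% as edgeR's common value over all genes tested. After normalization, Ctrl replicate 1 was the lowest Ctrl sample for 5 of the 10 genes and the highest for 4.

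Origin licensing is the step in late mitosis and G1 in which the ring-shaped MCM helicase is loaded onto DNA. The origin recognition complex (ORC) binds the DNA, CDC6 and CDT1 join it, and the MCM ring is placed around the DNA in an inactive form. Geminin, the product of *GMNN*, binds CDT1 and blocks further loading after S phase has begun. Firing then needs the kinase CDC7 with its activator DBF4, cyclin-dependent kinases and a set of loading factors, and MCM10 is required when the assembled helicase starts to unwind DNA. Many of these genes are known targets of the E2F transcription factors, and their transcripts rise around the entry into S phase in cycling cells.

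The promoter sequences are shown first, so that the values can be read beside them. The region from 250 bases before to 50 bases after each annotated start was taken from NCBI RefSeq (GRCh38.p14), which held all 10 genes in 12 windows, with 2 starts each for *CDC7* and *GMNN*. Both strands were searched for 8 E2F-like words, TTTCCCGC, TTTCCCGG, TTTCGCGC, TTTCGCGG, TTTGCCGC, TTTGCCGG, TTTGGCGC and TTTGGCGG, and for the word TTTGAA of the cell cycle homology region (CHR), found in many promoters of genes that peak in G2 and mitosis. The words were chosen after the sequences had been seen, so the shares of all windows given below cannot serve to measure an enrichment. No gene of the 10 held both kinds. An E2F-like word was present in 6 of the 12 windows, from 6 of the 10 genes (*CDC6*, *CDT1*, *MCM10*, *GMNN*, *CDC7* and *ORC3*), against 6.19% of all 35116 windows in the RefSeq set. The CHR word was present in *DBF4* alone of the 10, against 15.2% of all windows. *ORC1*, *ORC2* and *ORC6* held no exact match to either kind of word. Near matches were not counted, so a gene without a listed word can still hold a similar sequence. Of the genes called below with a log2 fold change of -1 or less, *CDC6* and *MCM10* held an E2F-like word, and *ORC1* and *ORC6* did not. A link between the words and the values was not tested. A match is a description of the letters and not of a bound site.

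The matches are given as windows of 30 bases on the plus strand, the strand of all these genes, from 5′ to 3′ with the word in capitals, since they show how place and strand differ from gene to gene. *CDC6* held a word 28 bases before the start (chr17:40287840-40287869) and another at position 8 after it (chr17:40287875-40287904). *CDT1* held 2 words side by side, of which the one 27 bases before the start is capitalized (chr16:88803751-88803780), and the other, on the opposite strand, ends directly before it. The *MCM10* word began at position 6 after the start (chr10:13161552-13161581). The *GMNN* word lay 80 bases before the downstream start (chr6:24775322-24775351). *CDC7* held a word 68 bases before its downstream start (chr1:91501033-91501062), and another on the opposite strand 34 bases before it (chr1:91501067-91501096). The *ORC3* word lay on the opposite strand 12 bases before the start (chr6:87590112-87590141). The *DBF4* window (chr7:87876478-87876507) shows the CHR word, on the opposite strand, across the start. In GENCODE 29 the windows of *CDC6*, *CDT1*, *ORC3* and *DBF4* fall in annotated exons of these genes, as do 28 bases of the *MCM10* window, while those of *CDC7* and *GMNN* lie outside annotated exons of these genes.
CDC6 upstream word: cgaggccgggcTTTGGCGGgaggtgggaac
CDC6 downstream word: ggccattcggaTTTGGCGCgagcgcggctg
CDT1: cccgcgggaaaTTTGGCGGgaaccgcgccc
MCM10: ccggttggaatTTTGGCGGgttcagctgtg
GMNN: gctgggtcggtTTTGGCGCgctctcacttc
CDC7 plus strand: gtgcagttcctTTTCCCGCcccccttcgga
CDC7 opposite strand: tccgacctgcgGCGGGAAAgtcgcgcgcct
ORC3: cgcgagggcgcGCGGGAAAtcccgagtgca
DBF4: gcgtgacgcgttTTCAAAtcttcaaccgcc

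The libraries were similar in depth, with total counts between 14915745 and 17411780 per sample, and the counts of the 10 genes lay between 233 and 2120. Of 9 markers of the myeloid leukemia line, such as *FLT3*, *HOXA9*, *MEIS1* and *CD33*, 8 were above 10 CPM in every sample, and only *ITGAM* was not. All 10 markers of other cell types, such as T, B, epithelial and fibroblast cells were under 1 CPM in every sample, and *CD3D*, *MS4A1*, *EPCAM*, *KRT19* and *COL1A2* were at 0 throughout. The summed level of the myeloid markers was 999 to 1063 CPM in Ctrl and 1200 to 1212 CPM with WNK463. The markers differed in direction, with *PTPRC* at 83.3 to 102 CPM in Ctrl and 205 to 215 CPM with WNK463, and *CSF1R* at 53.2 to 62.4 and 103 to 123 CPM. *FLT3* was at 348 to 381 CPM in Ctrl and 317 to 324 CPM with WNK463, and *CD33* at 81.3 to 89.4 and 63.8 to 68.1 CPM. In TPM, a scale adjusted for transcript length, the groups overlapped for *FLT3* (167 to 187 in Ctrl and 176 to 181 with WNK463). They did not for *CD33* (116 to 131 and 108 to 115 TPM). The part of these differences in the results below was not tested. CPM are counts relative to the size of the library after TMM normalization, which assumes that most genes do not differ.

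After WNK463 treatment, 9 of the 10 genes were lower at an adjusted p below 0.05 and 0 were higher in edgeR's quasi-likelihood test. Only *DBF4* did not pass. Of all 11973 genes tested, 35.3% were lower and 35.5% were higher by the same rule. With a log2 fold change of -1 or less required as well, *CDC6*, *MCM10*, *ORC1* and *ORC6* were called, 4 of 10, against 5.55% of all genes tested. For 9 of the 10 genes every WNK463 sample lay below every Ctrl sample, as it did for 36.4% of all genes tested, while for 37.1% every WNK463 sample lay above. The median log2 fold change of the 10 genes was -0.94, beside 0.02 over all genes tested. Because the 10 genes were chosen with earlier results known, the values of all genes beside them are a description and not a test. *ORC4* and *ORC5*, which are not among the 10, had log2 fold changes of 0.30 and -0.12. When libraries were scaled by their totals only, the median of all genes rose by 0.15 and that of the 10 genes was -0.78. Such a change moves all genes by nearly the same amount, so the gap to all genes, -0.95 with either scaling, could hardly differ. In the limma fits on TPM values, described below, the gap was -0.88 to -0.80. Scaling by totals gave 3123 lower and 5525 higher genes in place of 4222 and 4251, and among the 10 genes 8 were lower and *DBF4* was higher. In a bulk sample, fewer cells in a given phase of the cycle and less RNA per cell cannot be told apart.

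**Figure D1:**
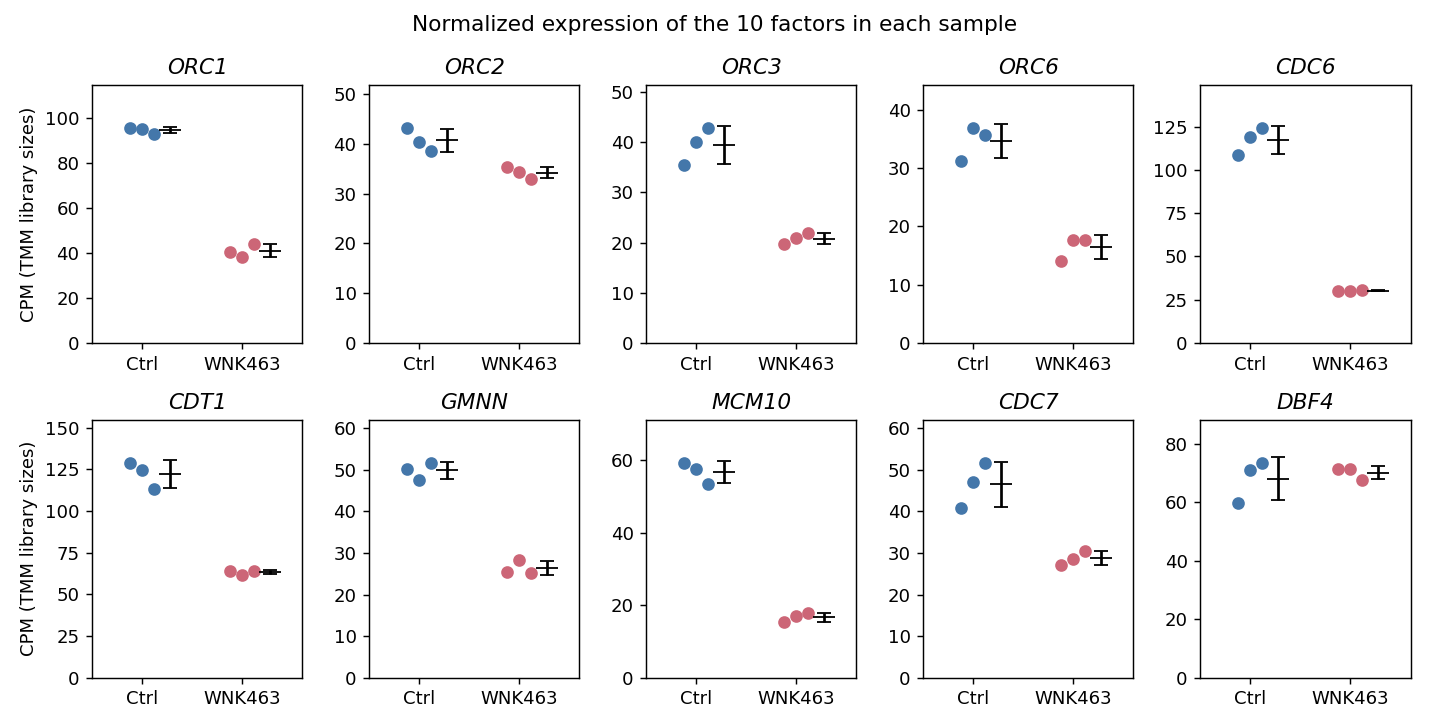
Normalized expression in CPM (vertical axis, from 0, with its own scale for each gene) of the 10 genes in the 3 Ctrl samples (blue) and the 3 WNK463 samples (red), where points are samples and the black marks are the mean and SD of each group. The groups overlap for *DBF4* only, and the mean of *CDC6* is 117 CPM in Ctrl and 30.2 CPM with WNK463.

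*CDC6* (ENSG00000094804) encodes the ATPase that joins ORC at the start of licensing, and lies on chromosome 17 from 40287633 to 40304657 in GENCODE 29 (GRCh38, plus strand). Its level was 109, 119 and 124 CPM in Ctrl, and 30.1, 30.0 and 30.5 CPM with WNK463. The treated samples were nearly equal to each other and all far below the lowest Ctrl sample. The log2 fold change was -1.96 (standard error of the log2 fold change, SE, 0.06, with an edgeR adjusted p = 4.5e-14), which is 25.7% of the Ctrl level with a 95% interval of 23.4% to 28.3%. By p-value *CDC6* ranked 31 of the 11973 genes, the highest rank of the 10.

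*CDT1* (ENSG00000167513), on chromosome 16 from 88803213 to 88809258 (plus strand), encodes the factor that brings the MCM ring to ORC and CDC6. It was measured at 129, 124 and 113 CPM in Ctrl and at 64.1, 61.7 and 64.0 CPM with WNK463. The groups did not overlap, and the log2 fold change was -0.95 (SE 0.06, edgeR adjusted p = 1.3e-10). Its inhibitor *GMNN* (ENSG00000112312), on chromosome 6 from 24774931 to 24786099 (plus strand), moved by nearly the same amount. *GMNN* had 50.3, 47.6 and 51.7 CPM in Ctrl and 25.4, 28.2 and 25.3 CPM with WNK463. The log2 fold change was -0.92 (SE 0.07, edgeR adjusted p = 2.8e-09).

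The balance between the licensing factor and its inhibitor was followed within each sample, since such a ratio does not depend on how the libraries are scaled. The count of *CDT1* was 2.57, 2.62 and 2.19 times that of *GMNN* in the Ctrl samples and 2.52, 2.19 and 2.53 times with WNK463. These counts are not per length, so that the ratio serves to compare groups and not the genes. The groups overlapped, with a mean log2 ratio of 1.29 ± 0.14 in Ctrl and 1.27 ± 0.12 with WNK463 (SD, n = 3 each). The difference of -0.02 was smaller than the spread between replicates (exact two-sided permutation test, p = 0.50), a test that with 3 against 3 samples cannot give a p below 0.10.

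ORC is built of 6 subunits, of which ORC1 to ORC5 form the ring and ORC6 is bound more loosely. *ORC1* (ENSG00000085840), on chromosome 1 from 52372829 to 52404459 (minus strand), encodes the subunit whose level is known to vary over the cycle in human cells. It was at 95.5, 95.3 and 93.0 CPM in Ctrl and at 40.5, 38.2 and 43.9 CPM with WNK463. The Ctrl samples were within a few CPM of each other and all above the treated ones, and the log2 fold change was -1.21 (SE 0.06, edgeR adjusted p = 1.0e-11). *ORC6* (ENSG00000091651), on chromosome 16 from 46689643 to 46698394 (plus strand), had 31.3, 36.9 and 35.7 CPM in Ctrl and 14.1, 17.7 and 17.7 CPM with WNK463. Its log2 fold change was -1.07, and the 95% interval of -1.28 to -0.86 spans the threshold of -1. *ORC3* (ENSG00000135336), on chromosome 6 from 87590067 to 87667453 (plus strand), had 35.4, 40.1 and 42.9 CPM in Ctrl and 19.7, 20.9 and 21.8 CPM with WNK463. Its log2 fold change was -0.92 (95% interval -1.10 to -0.74, edgeR adjusted p = 2.4e-08).

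*ORC2* (ENSG00000115942), on chromosome 2 from 200908973 to 200963680 (minus strand), changed least of the 4 ORC genes followed. Its values were 43.2, 40.3 and 38.5 CPM in Ctrl and 35.3, 34.4 and 33.0 CPM with WNK463. The groups did not overlap, but the gap between the lowest Ctrl and the highest treated sample was small, and the log2 fold change was -0.25 (95% interval -0.40 to -0.10, edgeR adjusted p = 0.0043). With total counts in place of TMM it was -0.10 and did not pass (adjusted p = 0.22), and on the log2(TPM + 1) scale it was -0.0078 with limma (adjusted p = 0.93). *ORC2* overlaps the antisense gene *AC005037.1* by 418 bases, and that gene is not among those of the table. Whether the counting used strand is not given in the sources used here.

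The remaining subunits, *ORC4* and *ORC5*, are not among the 10 and were examined to complete the complex. *ORC4* had 27.0, 32.1 and 29.8 CPM in Ctrl and 36.1, 41.4 and 31.7 CPM with WNK463, so that the groups overlapped. Its log2 fold change was 0.30 (SE 0.09, edgeR adjusted p = 0.0083), and without WNK463 replicate 2 it was 0.19 and did not pass (adjusted p = 0.081). On the log2(TPM + 1) scale it did not pass either (0.24, limma adjusted p = 0.077). *ORC5* had 32.8, 39.3 and 35.1 CPM in Ctrl and 30.9, 31.6 and 35.8 CPM with WNK463, with a log2 fold change of -0.12 (95% interval -0.30 to 0.05, edgeR adjusted p = 0.19). Without Ctrl replicate 1 it was -0.19 and passed (adjusted p = 0.047). *LRWD1*, which encodes a protein that binds ORC, had a log2 fold change of 0.03 (adjusted p = 0.70 from edgeR). With total counts *LRWD1* passed as higher (0.19, adjusted p = 0.032 from edgeR). Its TPM values were 34.4, 29.6 and 31.1 in Ctrl and 34.8, 36.4 and 37.6 with WNK463, without overlap. Of the 6 ORC genes, 4 were thus lower and 1 was higher, beside 35.3% lower and 35.5% higher over all genes tested. *ORC4* overlaps *ACVR2A* by 430 bases and *MBD5* by 594 bases.

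**Figure D2:**
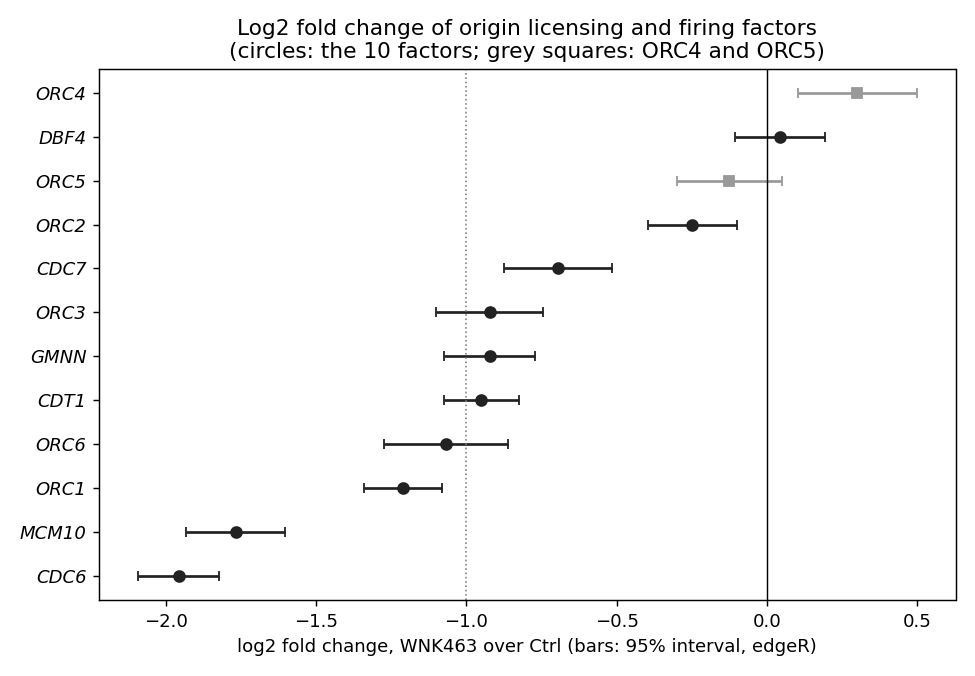
Log2 fold change of WNK463 over Ctrl (horizontal axis) with its 95% interval from edgeR, for the 10 genes (black circles) and for *ORC4* and *ORC5* (grey squares), with a solid line at no change and a dotted line at -1. *CDC6* and *MCM10* lie beyond -1.5, and the intervals of *DBF4* and *ORC5* include 0.

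The ORC subunits *ORC1* and *ORC6*, and *CDC6* and *MCM10*, which are not ORC subunits, were also compared within each sample with *ORC2* as the common reference. The log2 ratio of *ORC1* over *ORC2* counts was 1.22 ± 0.07 in Ctrl and 0.26 ± 0.14 with WNK463, a difference of -0.96 (SD, n = 3 each). That of *ORC6* over *ORC2* was -0.23 ± 0.20 and -1.06 ± 0.23, a difference of -0.83. For *CDC6* over *ORC2* the log2 ratio was 1.53 ± 0.18 in Ctrl and -0.18 ± 0.06 with WNK463, a difference of -1.71. For *MCM10* over *ORC2* it was 0.48 ± 0.03 and -1.04 ± 0.15, a difference of -1.52. In each of these 4 ratios the groups did not overlap (exact two-sided permutation test, p = 0.10, which is the lowest value 3 against 3 samples can give, adjusted p = 0.12 over 6 ratios). These ratios share the *ORC2* counts and are not independent of each other. *ORC2* changed least of the ORC genes followed. The ratios therefore largely restate the fold changes of *ORC1*, *ORC6*, *CDC6* and *MCM10* and are no separate support for them.

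*MCM10* (ENSG00000065328), on chromosome 10 from 13161554 to 13211104 (plus strand), encodes the factor needed when the loaded helicase begins to unwind DNA. Its level was 59.2, 57.5 and 53.4 CPM in Ctrl and 15.3, 16.9 and 17.7 CPM with WNK463. All treated samples were below the lowest Ctrl sample by a wide margin, and the log2 fold change was -1.77 (SE 0.08, edgeR adjusted p = 1.6e-12), or 29.4% of the Ctrl level (95% interval 26.2% to 32.9%). Of the 10 genes only *CDC6* had a lower fold change.

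CDC7 and DBF4 form the kinase that phosphorylates the loaded MCM ring, and *CDC7* was lower while *DBF4* did not pass the test. *CDC7* (ENSG00000097046), on chromosome 1 from 91500893 to 91525764 (plus strand), encodes the catalytic subunit and had 40.9, 47.1 and 51.7 CPM in Ctrl and 27.1, 28.6 and 30.6 CPM with WNK463. The groups did not overlap, and its log2 fold change was -0.70 (SE 0.08, edgeR adjusted p = 9.3e-07). *DBF4* (ENSG00000006634), on chromosome 7 from 87876216 to 87909541 (plus strand), encodes the activator and had 59.7, 70.9 and 73.5 CPM in Ctrl and 71.3, 71.4 and 67.4 CPM with WNK463. The treated samples lay within the range of the Ctrl samples. The log2 fold change was 0.04 (95% interval -0.11 to 0.19, edgeR adjusted p = 0.59). Without Ctrl replicate 1, the lowest of the Ctrl samples, it was -0.05, and with total counts it was 0.19 and passed (adjusted p = 0.025). Within a sample, the count of *DBF4* was 1.46, 1.51 and 1.42 times that of *CDC7* in Ctrl and 2.63, 2.50 and 2.20 times with WNK463. This ratio rose in log2 from 0.55 ± 0.04 to 1.29 ± 0.13 (SD, n = 3 each), a difference of 0.74 without overlap between the groups (exact two-sided permutation test, p = 0.10, again the lowest value possible, adjusted p = 0.12). *DBF4* overlaps *SLC25A40*, which lies on the other strand, by 142 bases, and a processed pseudogene, *DBF4P1*, lies on chromosome 10. *SLC25A40* is among the genes of the table and *DBF4P1* is not. How reads shared with these were counted is not given in the sources used here.

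**Figure D3:**
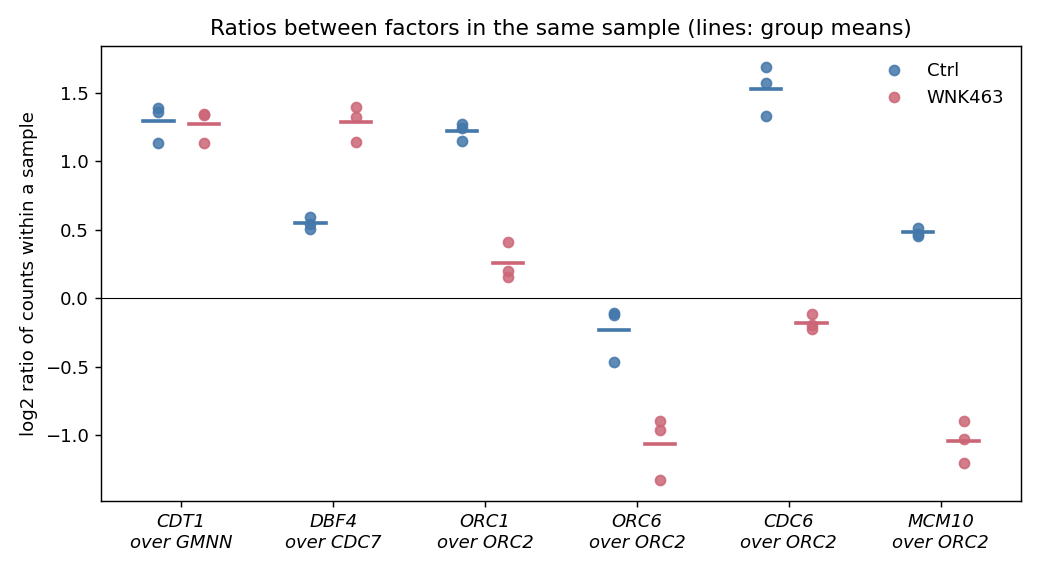
Log2 of the ratio of counts between 2 genes in the same sample (vertical axis) for 6 pairs, with Ctrl in blue and WNK463 in red, where points are samples and lines are group means. The groups overlap for *CDT1* over *GMNN* only, *DBF4* over *CDC7* is higher with WNK463 and the other 4 ratios are lower.

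Levels were compared between genes per length, using the TPM values, which are shares of all transcripts adjusted for transcript length. In Ctrl the order was *CDC6* (93.1 ± 5.85 TPM), *CDT1* (87.2 ± 6.85), *GMNN* (81.2 ± 2.59), *ORC1* (56.4 ± 0.787), *DBF4* (51.4 ± 4.99), *ORC6* (39.9 ± 3.82), *MCM10* (31.4 ± 7.31), *ORC3* (29.6 ± 2.92), *CDC7* (27.0 ± 3.09) and *ORC2* (17.6 ± 0.850), as mean ± SD in TPM over 3 samples. Neighbours whose samples overlapped were *CDC6* and *CDT1*, *CDT1* and *GMNN*, and the run of *ORC6*, *MCM10*, *ORC3* and *CDC7*. *MCM10* overlapped *ORC6* (lowest Ctrl value 35.5 TPM) through Ctrl replicate 2 only, at 39.8 TPM against 28.3 and 26.2 in the other Ctrl samples. With WNK463 the order was led by *DBF4* (60.9 ± 2.24 TPM), followed by *CDT1* (53.8 ± 3.16) and *GMNN* (49.3 ± 3.69), which overlapped each other. *CDC6* (25.7 ± 2.55 TPM) lay between *ORC1* (27.9 ± 1.78) and *ORC6* (21.7 ± 2.69), and overlapped both. *CDC7* (18.9 ± 1.09 TPM), *ORC3* (18.2 ± 0.688) and *ORC2* (17.5 ± 0.371) came next, each overlapping its neighbour. *MCM10* was last at 9.07 ± 0.731 TPM, below every sample of the other genes. On this scale *DBF4* was at 45.7, 53.6 and 55.0 TPM in Ctrl and at 63.4, 60.3 and 59.0 TPM with WNK463, so the groups did not overlap, unlike in CPM, and limma on log2(TPM + 1) gave 0.24 (adjusted p = 0.018). TPM are shares of a fixed total, and with limma on log2(TPM + 1) the median of all genes was 0.16.

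**Figure D4:**
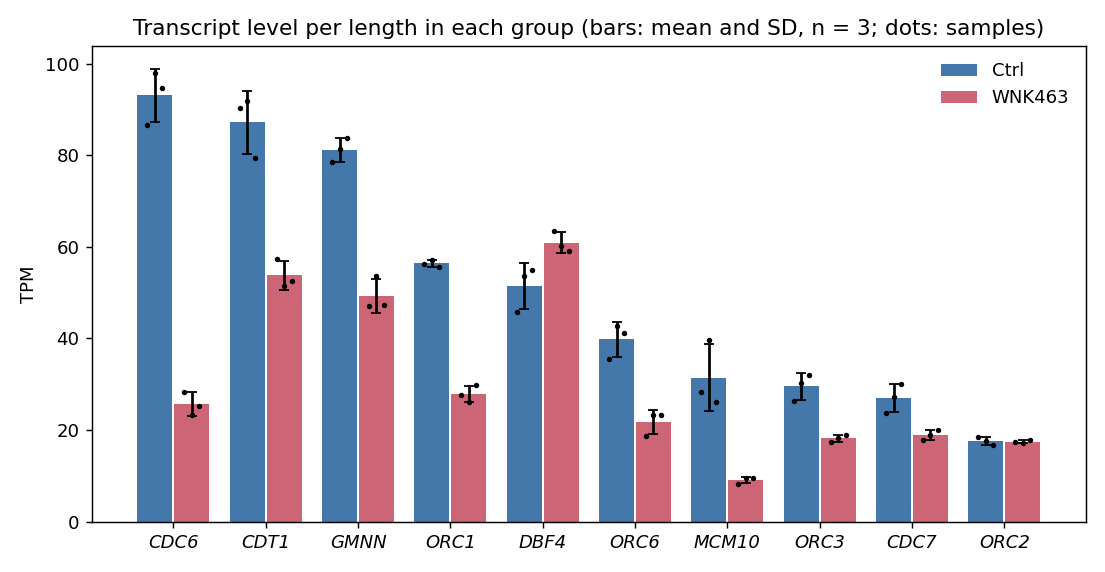
Transcript level per length in TPM (vertical axis, from 0) of the 10 genes in Ctrl (blue) and WNK463 (red), with bars for the mean, error bars for the SD of 3 samples and dots for samples. *CDC6* leads in Ctrl at 93.1 TPM and *DBF4* leads with WNK463 at 60.9 TPM.

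The changes were set beside other genes of the pathway. All 11 genes of the replicative helicase (the MCM ring, *CDC45* and the GINS complex) were lower, with a median log2 fold change of -1.77, and those with the smallest p were *MCM5* (-2.38) and *MCM4* (-1.95). Of 16 other firing factors, 15 were lower and 0 higher, with a median of -0.88. *CDK2*, the S phase kinase, and *POLE*, the catalytic subunit of the leading-strand polymerase, had log2 fold changes of -1.43 and -1.17, while *POLE4* did not pass (0.13, adjusted p = 0.22 from edgeR). With total counts *POLE4* was higher. *DBF4B*, which encodes the other activator of CDC7, was among the lower ones, at 17.9 ± 1.51 CPM in Ctrl and 10.2 ± 0.560 CPM with WNK463 (SD, n = 3 each). It was named after its value was seen. The same adjusted p below 0.05 held for 35.3% of all genes in the lower direction.

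Of 11 listed genes that control licensing, 9 were tested, 5 were lower, 1 was higher and 3 did not pass (median log2 change -0.17). Among all genes tested 35.3% were lower and 35.5% higher, and on the TPM scale with limma 3 of the list were lower and 3 higher. *DTL* encodes the receptor that marks CDT1 for destruction in S phase, and fell to 42.3 ± 2.96 CPM with WNK463 from 129 ± 1.52 CPM in Ctrl (SD, n = 3), with a log2 change of -1.61. *CCNF*, whose product cyclin F targets CDC6 for degradation, had -0.85. *CUL4B*, a scaffold of the same ubiquitin ligase family as DTL, rose from 83.0 ± 2.59 to 122 ± 2.33 CPM, a log2 fold change of 0.56. *DDB1*, *CUL4A* and *MCMBP* did not pass, with -0.07, 0.01 and -0.06. *GMNC* and *MCIDAS*, the relatives of geminin in multiciliated cells, had too few counts to be tested. With total counts the median was -0.02 and *CUL4A* passed as higher, while *KAT7* no longer passed. In the limma fits *DDB1* and *MCMBP* passed as higher.

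Transcripts that mark phases of the cell cycle were examined in the same samples. All 10 of the listed G1/S transcripts were lower, with a median log2 fold change of -1.42, and *RRM2*, a subunit of ribonucleotide reductase, had -1.53. Of 12 G2/M transcripts 9 were lower and 2 were higher, with a median of -0.59, where all genes tested had 35.3% lower and 35.5% higher. *CDC20* and *PLK1* had -0.80 and -0.69, *CENPF* and *HMMR* had 0.49 and 0.40, and *CCNB2* did not pass (-0.10, adjusted p = 0.097 from edgeR). Without Ctrl replicate 1 *CCNB2* passed, at -0.12 (adjusted p = 0.049 from edgeR). With total counts 7 of the G2/M transcripts were lower, since *CCNB1* (adjusted p = 0.13 from edgeR) and *CDK1* (adjusted p = 0.069 from edgeR) no longer passed, and the limma fits gave 7 to 8. What part the share of cells in each phase had in the values of the 10 genes was not tested.

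**Figure D5:**
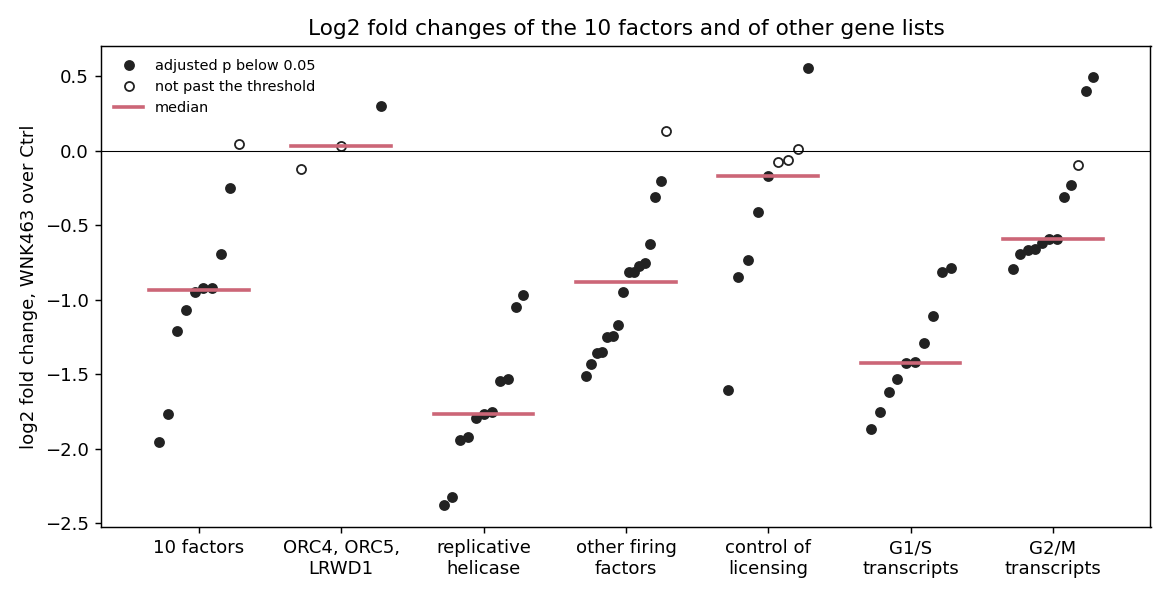
Log2 fold change of WNK463 over Ctrl (vertical axis) for each tested gene of the 10 factors and of 6 other lists, where filled points passed an adjusted p of 0.05, open points did not, and red lines are medians. The helicase genes reach lowest (median -1.77), and the 10 factors (median -0.94) range from *CDC6* at -1.96 to *DBF4* at 0.04.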

How the data were processed

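RNA was sequenced from 3 Ctrl and 3 WNK463 samples of MV4-11 cells. The authors deposited 1 table with an estimated count per gene and sample, rounded to whole numbers, and a TPM value per gene and sample. It also holds the authors' group means and their own comparison (a log2 fold change and p-values), which the authors deposited as results and which were not used here. The submitters' processing notes name fastp, Bowtie2, HISAT2, StringTie, RSEM, DESeq2, edgeR and GRCh38. Their versions, settings and strand setting are not given in the sources used here.

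Genes with low counts were removed with filterByExpr (11973 of 20348 kept). Groups were compared with edgeR 4.0.16 (TMM, quasi-likelihood test) in R 4.3.3, with Benjamini-Hochberg adjustment over all genes tested and a threshold of 0.05. The standard error was the absolute log2 fold change over the square root of the F statistic of that test. The 95% intervals were built from it with the t distribution. Ratios within samples were compared with an exact two-sided permutation test. Alternatives were total counts, DESeq2 1.42.0, other filters, limma 3.58.1 on log2(TPM + 1) and log2(TPM + 0.1), a replicate block and leaving out each sample. The test was also run on simulated counts in which most genes were unchanged. In the real data most genes tested were called, so that run cannot check the calls made here. Total counts were 14915745 to 17411780 per sample. The members and lists were chosen with earlier results of these data known. Named genes were the 10 members, in each other list the 2 genes with the smallest p in each direction and those that did not pass or were not tested, and the 5 genes closest in profile to the members. Some genes that this rule would name are not reported here.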

Additional observations from a re-analysis of the deposited data

How the results depend on the processing

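Each fold change of the 10 genes was recomputed under 14 alternatives, 140 values in all, of which 131 kept their direction and their side of the threshold. *CDC6* ranged from -2.02 to -1.81 (log2 fold change), *MCM10* from -1.82 to -1.62 and *CDC7* from -0.79 to -0.49. Total counts gave a median of -0.78 over the 10 genes, -0.10 for *ORC2* (not passed) and 0.19 for *DBF4* (passed), so that 1 gene was higher. With limma on log2(TPM + 1), with or without a filter, the median was -0.70, *ORC2* had -0.0078 (not passed), *DBF4* 0.24 (passed, 1 gene higher) and 2 genes were lower with a log2 fold change of -1 or less, in place of 4. On log2(TPM + 0.1) the median was -0.71, *ORC2* had -0.0082 and *DBF4* 0.25, again with 1 gene higher. Leaving out 1 sample gave *DBF4* -0.050 to 0.092, with the lowest value without Ctrl replicate 1, and 3 to 5 genes with -1 or less. Of *ORC4*, *ORC5* and *LRWD1*, 2 were higher with total counts, 1 with each filtered limma fit and 0 with limma without a filter. Leaving out 1 sample gave 0 to 1 higher and 0 to 1 lower. Of the other firing factors, 1 was higher with total counts and with each limma fit. In place of 15, 14 of them were lower with total counts and 13 with each limma fit. Of the genes that control licensing, 2 were higher with total counts, and 3 were higher and 3 lower with each limma fit. The log2 ratio of *CDT1* over *GMNN* differed by 0.028 between groups in TPM, and by -0.105 to 0.045 when 1 sample was left out. The causes of these changes were not tested.

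The replicate numbers did not pair the samples (correlations of -0.043 to 0.023 between same-numbered samples), and with a replicate block 9 of the 10 genes were lower, the median was -0.94 and no call among the 10 changed. With 3 samples a group the exact test cannot give a p below 0.10.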

Other observations

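Outside the 10 factors and the lists above, the tested genes whose profile over the 6 samples was closest to the median profile of the factors were *PM20D2*, *KIF18B*, *C11orf98*, *TFDP1* and *CHEK1*. *TFDP1* encodes the DNA-binding partner of the E2F factors, *CHEK1* a checkpoint kinase and *KIF18B* a mitotic kinesin. Their log2 fold changes were -0.97, -0.98, -0.90, -0.97 and -1.01 in this order. The distance was the root mean square difference in centred log2 CPM, from 0.0304 for *PM20D2* to 0.0409 for *CHEK1*. The points are 6 samples in 2 groups, so that any gene with a similar fold change comes close.

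The transcript length implied by count over TPM, relative to each gene's mean over samples, was 0.745 for *MCM10* in Ctrl replicate 2 and 1.01 to 1.07 in the other samples. The ratio of the highest to the lowest was 1.44, and 9.67% of genes had one at least as wide. The TPM of *MCM10* in that sample was 39.8, against 28.3 and 26.2 in the other Ctrl samples, while the CPM of the 3 Ctrl samples were within 53.4 to 59.2.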
